A study of Mus musculus with 10 samples.

Results

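Astrocytes respond to injury, infection and inflammation by turning on a set of genes known together as reactive astrocyte genes, and 10 of these were followed here in the brains of Slc20a2-HO mice treated with FTY720 or placebo. The members were the rows of the count table named Gfap, Vim, Serpina3n, Lcn2, Cd44, Timp1, C4b, Steap4, Aspg and Cd109, chosen by name among 54532 genes, and all 10 were found and passed the filter on low counts. Brain RNA was sequenced from 6 mice given FTY720 (fingolimod, a sphingosine-1-phosphate receptor modulator) at 0.5 mg/kg and from 4 mice given the dimethyl sulfoxide solvent alone as placebo. Injections into the peritoneum began at 1.5 months of age and went on for 12 weeks, after which the mice were perfused with saline and part of the brain was used for RNA. All 10 mice, placebo included, were homozygous for the knockout allele Slc20a2 tm1a(EUCOMM)Wtsi in the gene of the phosphate transporter Pit-2, a line used as a model of brain calcification. Wild-type mice were not analysed here, and the values describe FTY720 against placebo among knockout mice and not the knockout itself.

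In a resting brain, astrocytes take up glutamate and potassium, make glutamine and wrap the blood vessels with their endfeet. When reactive, they raise the intermediate filament proteins GFAP and vimentin, which build their enlarged processes, and release proteins such as the protease inhibitor Serpina3n, the iron-siderophore carrier lipocalin 2 and complement C4. Cytokines of the interleukin 6 family, acting through the receptor chain gp130 and the transcription factor STAT3, are well known drivers of this state. Astrocytes also carry the sphingosine-1-phosphate receptors S1pr1 and S1pr3, through which FTY720, once phosphorylated, can act on them directly. The genes are not exclusive to astrocytes, since vimentin is made by vessel cells and ependyma and lipocalin 2 by neutrophils and endothelium.

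Between 14772745 and 18303981 counts were assigned to genes per mouse, with a median of 16653895. The mouse names carry, after F for FTY720 or P for placebo, the digit 1 or 3, which the labels do not explain: 3 FTY720 and 1 placebo mouse had digit 1, and 3 FTY720 and 3 placebo mice had digit 3. The digits differed in the brain regions they held. Gabra6, a GABA receptor subunit of cerebellar granule cells, stood at 130 to 172 CPM (counts scaled to the normalised library size) in the 6 digit 3 mice and at 0.06 to 0.24 CPM in the 4 digit 1 mice, and all 9 cerebellum markers were called higher with digit 3. Treatment was therefore compared in all mice, in all mice with the digit as a covariate, and within each digit. Libraries were whole pieces of tissue, so more astrocytes and more RNA per astrocyte cannot be told apart. A list of 15 astrocyte markers summed to between 7588 and 8675 CPM per mouse. Single markers differed between the digits, with 4 higher and 2 lower in digit 3 (adjusted p under 0.05 by edgeR). In that comparison 30.0% of all genes were called. The targeted gene, Slc20a2, was read at 6.31 to 17 CPM in every mouse, a whole-gene count that is not split by exon.

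The 10 genes lie on 7 chromosomes in GRCm38, and all 10 have the same coordinates in GENCODE M21. Gfap spans chr11:102887336-102900912 on the minus strand, Vim chr2:13573927-13582826 on the plus strand, Serpina3n chr12:104406729-104414329 on the plus strand and Lcn2 chr2:32384633-32388252 on the minus strand. C4b spans chr17:34728380-34743882 on the minus strand. No exon of a member overlapped an exon of another annotated gene on either strand. Serpina3n and C4b belong to families of near-identical copies. The other 13 Serpina3 genes together held between 12 and 40 counts per mouse against 364 to 1504 for Serpina3n, and C4a, the neighbour of C4b, stood at 1.04 to 2.56 CPM against 52.4 to 117 CPM for C4b. Reads shared between the copies could have been split or dropped in counting, which was not tested.

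Promoters from RefSeq (GRCm38.p6) were found for 8 of the 10 members, and the 250 bases before the start are shown for the member called in all 3 treatment comparisons (Serpina3n), the member with the widest range between mice (Lcn2), the classical marker (Gfap) and the member with a STAT-type match (Steap4). Capitals mark a match to TTCNNNGAA, the palindromic core that STAT factors bind, which reads the same on both strands.
Serpina3n: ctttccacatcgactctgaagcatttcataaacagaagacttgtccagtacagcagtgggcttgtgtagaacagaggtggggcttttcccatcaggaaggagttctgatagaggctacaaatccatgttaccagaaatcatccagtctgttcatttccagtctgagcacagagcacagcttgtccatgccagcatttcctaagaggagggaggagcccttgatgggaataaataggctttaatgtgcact
Lcn2: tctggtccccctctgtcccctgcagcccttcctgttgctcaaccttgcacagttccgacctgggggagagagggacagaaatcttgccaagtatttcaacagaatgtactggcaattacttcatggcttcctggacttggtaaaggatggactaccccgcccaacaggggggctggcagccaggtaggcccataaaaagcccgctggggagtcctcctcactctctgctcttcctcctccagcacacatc
Gfap: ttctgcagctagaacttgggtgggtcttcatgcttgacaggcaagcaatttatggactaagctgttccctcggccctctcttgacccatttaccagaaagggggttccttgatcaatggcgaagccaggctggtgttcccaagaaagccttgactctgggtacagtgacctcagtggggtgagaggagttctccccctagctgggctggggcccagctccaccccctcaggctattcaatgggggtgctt
Steap4: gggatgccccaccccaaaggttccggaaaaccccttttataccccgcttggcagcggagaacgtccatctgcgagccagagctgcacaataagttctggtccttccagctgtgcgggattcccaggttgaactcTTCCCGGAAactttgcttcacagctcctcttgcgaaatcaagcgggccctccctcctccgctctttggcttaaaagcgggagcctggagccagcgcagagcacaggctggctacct
These are chr12:104406458-104406707 (plus strand), chr2:32387740-32387989 (minus strand), chr11:102897201-102897450 (minus strand) and chr5:7960222-7960471 (plus strand). They precede the start of the RefSeq transcript, which for Gfap and Lcn2 lies inside the gene span given above. Of the 8 windows, 1 held TTCNNNGAA (the match TTCCCGGAA in Steap4, whose first base lies 116 bases before the start) and 0 held TGANTCA, the core bound by AP-1. Among 32851 promoter windows of the same length, 7.02% held TTCNNNGAA and 6.75% held TGANTCA. A match describes letters only, and its absence from 250 bases says nothing of binding elsewhere.

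Per gene length, on the FPKM scale the authors deposited, the members ordered from Gfap, with a median of 90.2 FPKM over the 10 mice and a range of 68.4 to 183, to Steap4, with a median of 0.195 and a range of 0.0408 to 0.331. Serpina3n (median 19.1 FPKM), Vim (14.1) and C4b (12.1) followed Gfap, and their ranges over mice overlapped. Aspg (1.91), Timp1 (1.60), Cd44 (1.15), Lcn2 (0.985) and Cd109 (0.480) were low. Lcn2 varied most, 23.9-fold between the lowest and the highest mouse, against 5.08-fold for Serpina3n and 2.68-fold for Gfap. Cd44 varied least, from 0.704 to 1.27 FPKM.

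The filament genes Gfap and Vim did not differ detectably between FTY720 and placebo. Gfap was at 778, 371 and 480 CPM in the FTY720 mice F1-622, F1-624 and F1-918 and at 434 CPM in the digit 1 placebo mouse P1-623. In digit 3 mice it was at 291, 330 and 416 CPM with FTY720 (F3-609, F3-612 and F3-908) and at 392, 291 and 381 CPM with placebo (P3-612, P3-904 and P3-907). One mouse, F1-622, stood far above the other 9, and the groups overlapped within both digits. Treated mice averaged 444 ± 176 CPM (SD, n = 6) and placebo mice 374 ± 60.4 CPM (SD, n = 4). The log2 fold change was 0.25 (standard error 0.24, unadjusted p = 0.33 by edgeR's quasi-likelihood test). Without F1-622 the log2 fold change was 0.02. Within digit 3 it was -0.03 (standard error 0.17). Vim, which encodes vimentin, was at 104 CPM in F1-622 and between 49.8 and 77.9 CPM in the other 9 mice. Treated mice averaged 69.6 ± 18.2 CPM (SD, n = 6) and placebo mice 68.1 ± 8.44 CPM (SD, n = 4), and the log2 fold change was 0.03 (standard error 0.17).

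**Figure D1:**
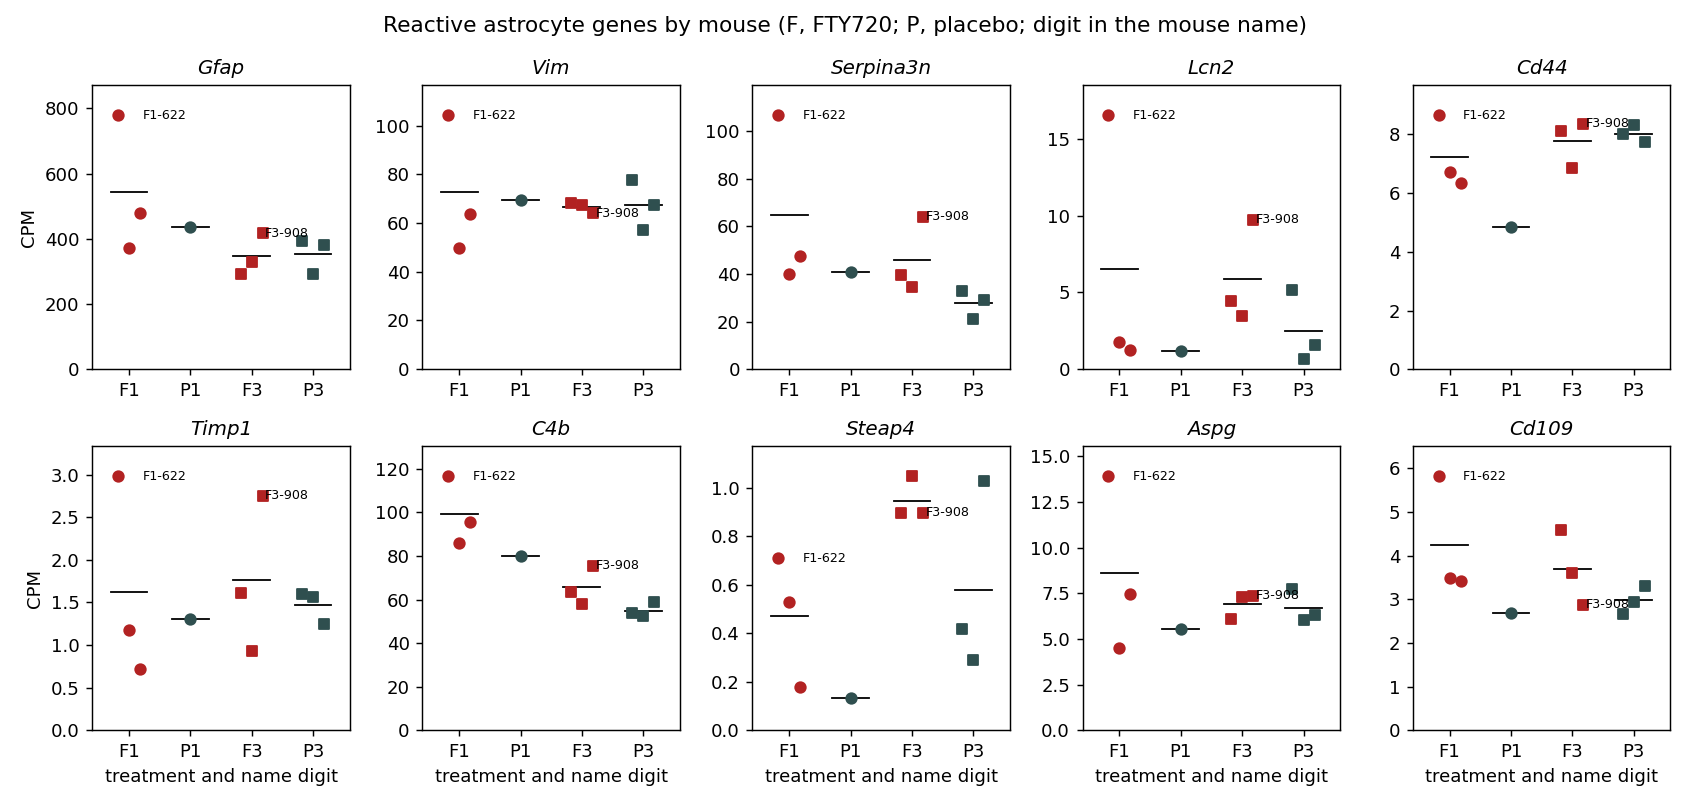
CPM of each gene in every mouse, 1 panel per gene with its own axis from 0, in 4 columns for FTY720 (F, red) and placebo (P, dark grey) with digit 1 (circles) or digit 3 (squares); the lines are column means. F1-622 is the highest circle in every panel, and in the Serpina3n panel the 3 F3 mice lie above the 3 P3 mice.

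Serpina3n, a secreted inhibitor of serine proteases and one of the most strongly induced genes of reactive astrocytes, was higher with FTY720. In digit 1 it was at 107, 39.9 and 47.6 CPM in F1-622, F1-624 and F1-918 and at 40.9 CPM in the placebo mouse, within the range of the FTY720 mice. In digit 3 it was at 39.5, 34.6 and 64.1 CPM in F3-609, F3-612 and F3-908 and at 33.0, 21.0 and 29.1 CPM in P3-612, P3-904 and P3-907. All 3 FTY720 mice of digit 3 thus lay above all 3 placebo mice of digit 3, a separation that 13.7% of the 14784 protein-coding genes tested also showed. The log2 fold change was 0.84 over all mice (standard error 0.31, unadjusted p = 0.019 by edgeR), 0.71 with the digit as covariate (standard error 0.27, unadjusted p = 0.022 by edgeR) and 0.74 within digit 3 (standard error 0.25, unadjusted p = 0.016 by edgeR). None passed Benjamini-Hochberg adjustment over all genes in edgeR's quasi-likelihood test, with adjusted p of 0.9999, 0.364 and 0.654. Exact permutation (two-sided, on mean log2 CPM) gave a p of 0.057 over the 210 splits and of 0.1 over the 80 arrangements within digits. The call over all mice stood without F1-622 (0.55, unadjusted p = 0.024 by edgeR) and was lost without P3-904 (0.69, unadjusted p = 0.058 by edgeR). With the digit as covariate it was lost without F3-908 (0.51, unadjusted p = 0.089 by edgeR) and without P1-623 (0.74, unadjusted p = 0.054 by edgeR). Within digit 3 it was lost without F3-908 (0.43, unadjusted p = 0.07 by edgeR) and when taken from the fit of 4 groups on all mice.

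C4b, the complement C4 gene that glia switch on in inflammation and ageing, differed with the digit as well as with the treatment. It was at 117, 86.1 and 95.7 CPM in the digit 1 FTY720 mice and at 79.9 CPM in the digit 1 placebo mouse, below all 3. In digit 3 it was at 63.3, 58.0 and 75.5 CPM with FTY720 and at 53.8, 52.4 and 58.7 CPM with placebo, where F3-612 lay under P3-907. The log2 fold change was 0.43 over all mice (standard error 0.20, unadjusted p = 0.049 by edgeR) and 0.28 with the digit as covariate (standard error 0.11, unadjusted p = 0.025 by edgeR). Within digit 3 it was 0.26 (standard error 0.13, unadjusted p = 0.069 by edgeR), which did not pass, except without F3-612, and it was 0.15 without F3-908. The exact permutation p was 0.09 over all splits and 0.05 within digits. Over all mice the call was lost without F1-622 (0.32, unadjusted p = 0.093 by edgeR) and on leaving out any of 6 other mice, while with the digit as covariate it was kept without F1-622 (0.24, unadjusted p = 0.024 by edgeR) and lost without F3-908 or P1-623. Counting changes of method as well, the call over all mice was lost in 12 of 20 alternative settings.

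Lcn2, which encodes lipocalin 2, had the largest estimated difference among the 10 genes and the largest standard error. It was at 16.5, 1.77 and 1.26 CPM in F1-622, F1-624 and F1-918 and at 1.18 CPM in P1-623. In digit 3 it was at 4.41, 3.43 and 9.74 CPM with FTY720 and at 5.17, 0.693 and 1.57 CPM with placebo. High values thus occurred in both groups, and in digit 1 they rested on F1-622 alone. The log2 fold change was 1.51 over all mice (standard error 0.74, unadjusted p = 0.064 by edgeR), 1.56 with the digit as covariate (standard error 0.76, unadjusted p = 0.062 by edgeR) and 1.25 within digit 3 (standard error 0.63, unadjusted p = 0.081 by edgeR). Leaving out 1 mouse moved the value over all mice between 0.94 without F1-622 and 2.41 without P3-612, the placebo mouse with the highest Lcn2. Within digit 3 it lay between 0.67 without F3-908 and 2.37 without P3-612. Leaving out P3-612 made Lcn2 a call in all 3 fits (unadjusted p = 0.012, 0.0082 and 0.00072 by edgeR), and it also passed without F1-624 or F1-918 over all mice and without F1-624, F1-918 or F3-612 with the digit as covariate. Counts ran from 12 to 233 per mouse.

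Timp1, an inhibitor of matrix metalloproteinases, gave a log2 fold change of 0.24 over all mice (standard error 0.39, unadjusted p = 0.56 by edgeR). It was at 2.98 CPM in F1-622 and 2.75 CPM in F3-908, and between 0.719 and 1.61 CPM in the other 8 mice. Without F1-622 the value was 0.012, and without F3-908 it was 0.040. Counts ran from 12 to 46 per mouse.

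Of the surface proteins and enzymes, none was called over all mice. Cd109, a membrane protein that restrains TGF-beta signalling and is counted among the genes raised after ischaemia, was at 5.81, 3.48 and 3.42 CPM with FTY720 against 2.69 CPM with placebo in digit 1, and at 4.59, 3.61 and 2.87 CPM against 2.67, 2.94 and 3.30 CPM in digit 3. In all, 5 of 6 FTY720 mice lay above all 4 placebo mice. The log2 fold change was 0.44 over all mice (standard error 0.22, unadjusted p = 0.063 by edgeR), and the exact permutation p was 0.048 over all splits and 0.11 within digits. Without F3-908 it passed over all mice (0.52, unadjusted p = 0.034 by edgeR) and with the digit as covariate (0.53, unadjusted p = 0.038 by edgeR), and without F1-622 it was 0.31 over all mice (unadjusted p = 0.13 by edgeR). Within digit 3 it was 0.32 (standard error 0.25) and 0.12 without F3-609. Steap4, a metalloreductase of the plasma membrane, had between 2 and 19 counts per mouse, and gave a log2 fold change of 0.57 over all mice (standard error 0.55, unadjusted p = 0.32 by edgeR), 0.88 with the digit as covariate (standard error 0.47) and 0.70 within digit 3 (standard error 0.50). Without P3-907 these values were 1.31, 1.495 and 1.41 and passed (unadjusted p = 0.043, 0.0099 and 0.028 by edgeR). Without P1-623 the value over all mice was 0.29, and without P3-904 that within digit 3 was 0.38. Cd44, the hyaluronan receptor, ranged from 4.85 CPM in P1-623 to 8.65 CPM in F1-622 and gave a log2 fold change of 0.05 (standard error 0.18). Aspg, an asparaginase, was at 13.9 CPM in F1-622 and between 4.48 and 7.72 CPM in the other 9 mice, with a log2 fold change of 0.27 (standard error 0.26), which was 0.031 without F1-622.

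Over the list, 2 of 10 members were called at an unadjusted p under 0.05 over all mice, both higher with FTY720 (Serpina3n and C4b), where 2.61% of the protein-coding genes tested were called. With the digit as covariate the same 2 members were called, where 14.1% of genes were, so the share was near the background. Within digit 3, 1 of 10 was called (Serpina3n) against 7.95% of genes. The log2 fold change lay above 0 in all 10 members over all mice, in all 10 with the digit as covariate and in 7 of 10 within digit 3. The median over the members was 0.35, 0.27 and 0.26, beside medians over all tested protein-coding genes of 0.005, -0.004 and -0.008. Without F1-622 the members' median was 0.17 over all mice and 0.17 with the digit as covariate, and without F3-908 it was 0.083 within digit 3. The groups overlapped in every member over all mice, where 0.839% of genes did not overlap. No member passed an adjusted p of 0.05 in any of the 3 comparisons, in edgeR or in DESeq2, which called the same numbers of members (2, 2 and 1) at an unadjusted p under 0.05 and gave 4 members no adjusted p in the fit with the digit. With no filter on low counts, edgeR gave Serpina3n an adjusted p of 1.65e-05 and Lcn2 one of 9.63e-08 with the digit as covariate, and 0.011 and 0.032 within digit 3. Over all mice no setting, no filter included, brought the adjusted p of edgeR, DESeq2 or limma below 0.776 for Serpina3n or 0.778 for Lcn2. The cause of the difference between the fits with and without the filter was not tested.

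**Figure D2:**
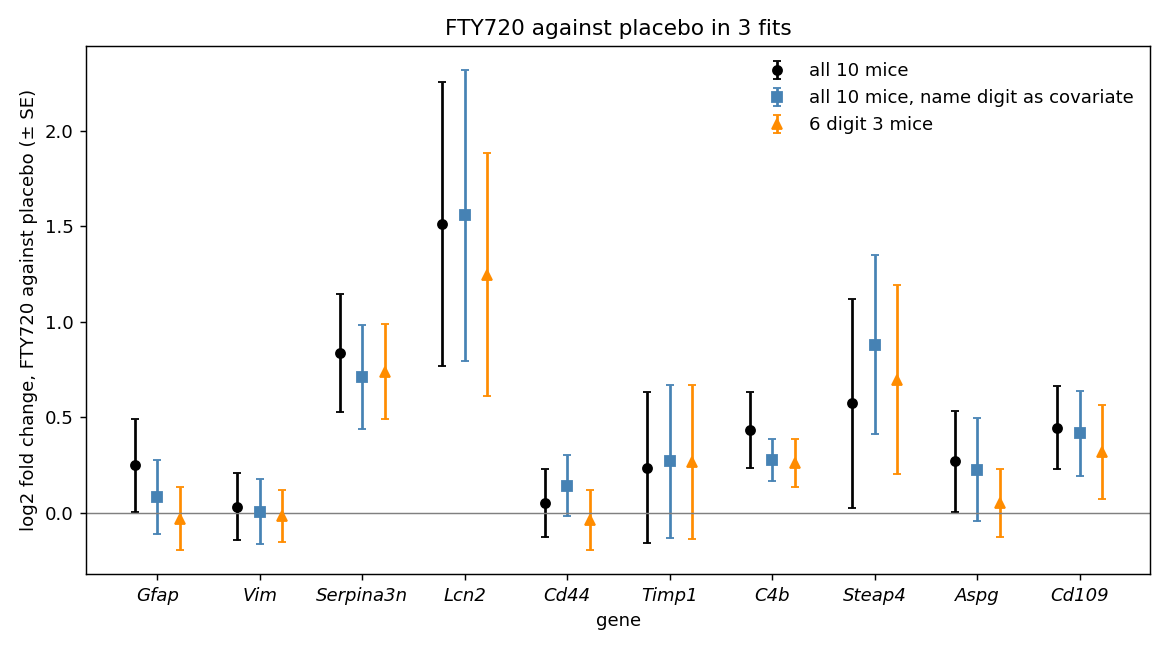
Log2 fold change of FTY720 against placebo for each gene, with its standard error as bars, over all 10 mice (circles), over all mice with the digit as covariate (squares) and in the 6 digit 3 mice (triangles). Serpina3n lies at 0.71 to 0.84 in the 3 fits, Gfap falls from 0.25 to -0.03, and Lcn2 has the widest bars.

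Within digit 1 only 1 placebo mouse was available, and the spread was taken from all 4 groups of treatment and digit, which assumes that this mouse varies like the others. Cd44 was the 1 member called (log2 fold change 0.58, standard error 0.26, unadjusted p = 0.048 by edgeR), where 3.48% of genes were called, and the call was lost without F1-622 (0.45, unadjusted p = 0.092 by edgeR). The Cd44 call was also lost under DESeq2, and P1-623 was the lowest of all 10 mice for Cd44. The difference in treatment effect between the digits was tested as an interaction: 0 of 10 members were called by edgeR and by DESeq2 at an unadjusted p under 0.05, beside 1.64% of genes in edgeR. Between mice whose number begins with 9 and those whose number begins with 6, 0 of 10 members were called by either tool, beside 1.48% of genes in edgeR. Xist, the RNA made from the inactive X chromosome of females, ranged from 464 to 989 CPM among the 4 number 9 mice and did not exceed 4.13 CPM among the 6 number 6 mice, so that this comparison and one of Xist-high with Xist-low mice cannot be told apart.

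A reactive profile was carried by 1 mouse across nearly the whole list. As a description, each gene's log2 CPM was set against its mean over the 10 mice and the deviations were averaged over the 10 genes, without a test. F1-622, treated with FTY720, stood at 0.94. It was the highest of the 10 mice in 9 genes, the exception being Steap4, and the highest digit 1 mouse in all 10. F3-908, also treated with FTY720, followed at 0.39. It was the highest digit 3 mouse in 6 genes and second or first in 7, led by Lcn2, Serpina3n and Timp1, whereas its Vim and Cd109 were below the mean. The other 4 FTY720 mice were at 0.10 (F3-609), -0.03 (F3-612), -0.20 (F1-624) and -0.25 (F1-918), and the placebo mice at 0.003 (P3-612), -0.12 (P3-907), -0.37 (P1-623) and -0.48 (P3-904). The ranges overlapped, with 2 placebo mice above the 2 lowest FTY720 mice. Thus F1-624 and F1-918, which shared treatment and digit with F1-622, did not share its profile.

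**Figure D3:**
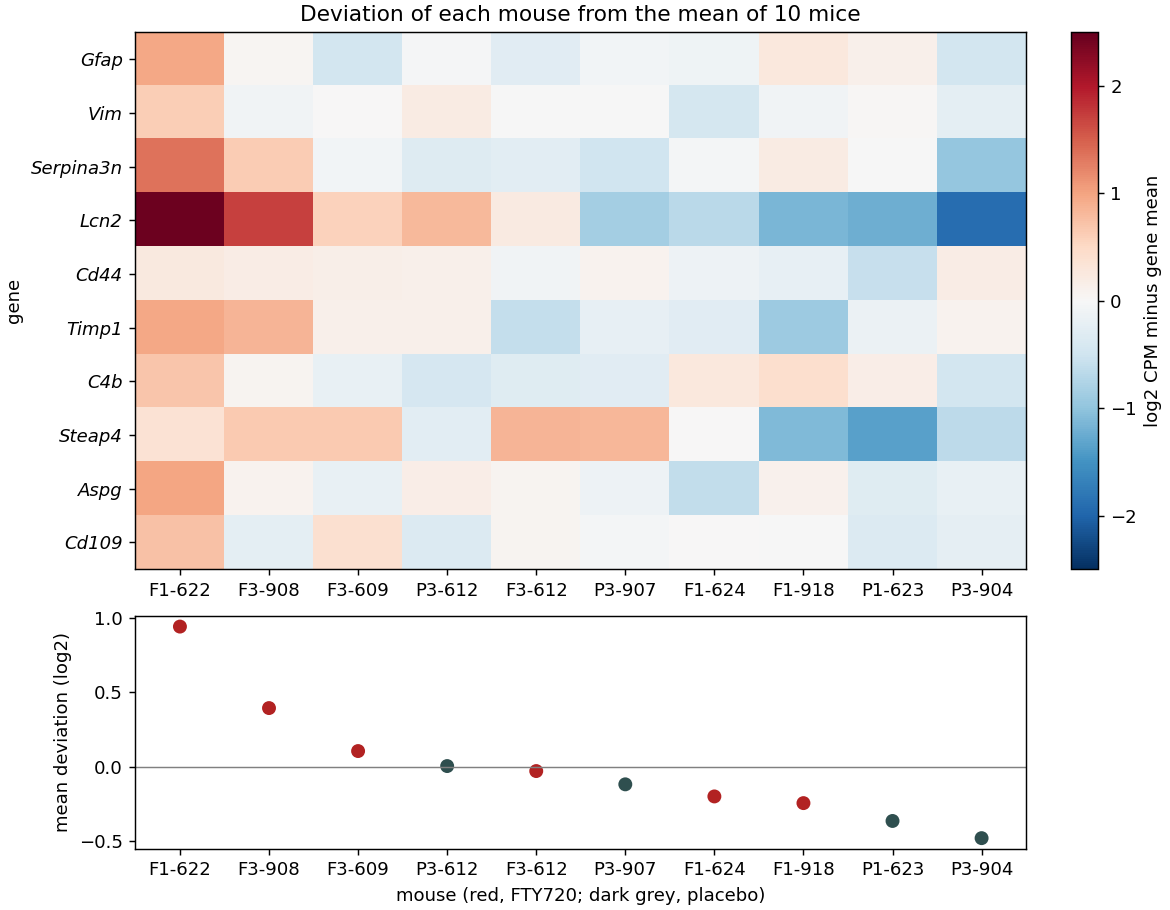
Upper panel, log2 CPM of each gene (rows) in each mouse (columns, ordered by the score) minus the gene's mean over 10 mice, on a colour scale from blue (below) to red (above). Lower panel, the mean of the 10 deviations, 0.94 in F1-622 and 0.39 in F3-908, with the other 8 mice between -0.48 and 0.10 (red, FTY720; dark grey, placebo).

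The members did not all rise in the same mice. After subtracting each digit's mean from log2 CPM, Serpina3n and Lcn2 had a Pearson r of 0.94 over the 10 mice (Spearman rho 0.88), and Serpina3n and C4b an r of 0.93 (rho 0.81). Without the 2 mice farthest from the median of Serpina3n, F1-622 and F3-908, r was 0.86 and 0.72. Gfap went with Aspg (r 0.91, rho 0.90, and 0.68 without F1-622 and F1-624), less with Serpina3n (r 0.79, rho 0.72, and 0.59 without these 2) and with Vim (r 0.84, rho 0.62, and 0.41 without them). Among 14051 genes with a mean of at least 1 CPM, Lcn2 ranked 6th and C4b 8th in likeness to Serpina3n, where Serpina3n itself is 1st, while Gfap, Aspg, Timp1, Vim, Cd44 and Cd109 ranked between 378 and 1975. The 5 genes outside the list most like Serpina3n were Sesn1 (r 0.98), Elp2 (0.96), Sec22b (0.95), Scrg1 (0.95) and Rnf115 (0.94). Those most like Gfap were Rer1 (0.98), Ggct (0.97), Vhl (0.97), Ackr1 (0.96) and Lin37 (0.96), with Aspg at rank 59 and the other members compared between 313 and 4544. These are descriptions over 10 libraries that share treatment, depth and scaling, and F1-622 is the highest mouse for 8 of these 10 genes, F3-908 for Sec22b and Rnf115.

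Of the 10 members, 1 passed between the digits. C4b was lower in digit 3 than in digit 1, at 60.3 ± 8.40 CPM (SD, n = 6) against 94.6 ± 16.0 CPM (SD, n = 4), with the mice of the 2 digits apart, as were those of 15.0% of genes. Its log2 difference was -0.58 (standard error 0.11, adjusted p = 0.0025 by edgeR's quasi-likelihood test with treatment in the model), and it was the 1 member called at an adjusted p under 0.05, where 30.0% of genes were called. Gfap was at 350 ± 53.7 CPM (SD, n = 6) in digit 3 against 516 ± 181 CPM (SD, n = 4) in digit 1, a log2 difference of -0.54 (standard error 0.19, adjusted p = 0.053 by edgeR), which did not pass and was -0.30 without F1-622. Gfap did pass in 4 of 17 alternative settings, among them without P3-612 (-0.57, adjusted p = 0.033 by edgeR). Neither Steap4, at 1.22 (standard error 0.48, adjusted p = 0.075 by edgeR), nor Serpina3n, at -0.51 (standard error 0.26) and at -0.18 without F1-622, passed. In alternative settings Steap4 passed in 1 of 16, without F1-622 (1.56, adjusted p = 0.049 by edgeR), and Serpina3n in 1 of 17. Since FTY720 mice were evenly split between the digits and placebo mice were not, the covariate lowered the treatment estimate of Gfap from 0.25 to 0.08 and that of C4b from 0.43 to 0.28.

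Of the 13 genes commonly listed as raised in any reactive astrocyte, 8 of them members, 3 were higher with the digit as covariate and 0 lower, namely Serpina3n, Osmr and Cp, where 14.1% of all genes were called. Osmr, the receptor chain for oncostatin M, was at 9.22, 6.43 and 8.09 CPM in the digit 1 FTY720 mice and 7.51, 5.58 and 6.04 CPM in those of digit 3, against 4.06 CPM in P1-623 and 4.57, 4.45 and 3.85 CPM in the digit 3 placebo mice. All 6 FTY720 mice lay above all 4 placebo mice, in a comparison where 0.839% of genes did not overlap, with a log2 fold change of 0.75 (standard error 0.18, unadjusted p = 0.00099, adjusted p = 0.9999 by edgeR) and of 0.69 with the digit as covariate (standard error 0.17, adjusted p = 0.354 by edgeR). Cp, which encodes the copper-carrying ferroxidase ceruloplasmin, rose by 0.46 with the digit as covariate (standard error 0.13, adjusted p = 0.354 by edgeR). S1pr3, also in this list, gave 0.05 (standard error 0.13), and S1pr1, the main astrocyte receptor for the drug, -0.15 (standard error 0.08, unadjusted p = 0.087 by edgeR).

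Of 12 tested genes linked to the neuroinflammatory (A1) type, 0 were called over all mice or with the digit as covariate by edgeR at an unadjusted p under 0.05. Of 10 tested genes linked to the ischaemic (A2) type, 2 were higher with the digit as covariate and 1 lower, where 14.1% of all genes were called, and 1 was higher and 1 lower over all mice (2.61% of genes). Tgm1, a transglutaminase, stood at 0.270 to 1.84 CPM and gave 1.11 (standard error 0.47), and B3gnt5, a glycosyltransferase, gave 0.58 (standard error 0.24). Sphk1, the kinase that makes sphingosine-1-phosphate, gave -0.50 (standard error 0.20). These calls were lost in 6 of 14 alternative settings for Tgm1, 7 of 18 for B3gnt5 and 5 of 19 for Sphk1. In the interleukin 6 and STAT3 pathway, 3 of 11 tested genes were higher with the digit as covariate (Osmr, Jak2 and Lifr, the latter at 0.23 with standard error 0.10) and 1 lower (Cntfr, the receptor for ciliary neurotrophic factor, at -0.30 with standard error 0.12). Jak2, a kinase bound to these receptors, gave 0.32 (standard error 0.11). The share was 4 of 11 where 14.1% of all genes were called, and the call of Lifr was lost in 8 of 19 alternative settings. Over all mice 1 of the 11 was higher and 0 lower, beside 2.61% of genes called, and within digit 3 likewise 1 and 0, beside 7.95%.

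Astrocyte markers did not rise with the reactive genes. The 15 markers summed to 7597 CPM in F1-622 and 7825 CPM in F3-908, within the range of 7588 to 8675 CPM over all mice, while the sum of the 10 reactive genes ranged from 441 CPM in P3-904 to 1154 CPM in F1-622. With the digit as covariate 3 of the 15 were lower with FTY720 and 0 higher, namely Acsbg1 (-0.25, standard error 0.09), Aldoc (-0.25, standard error 0.11) and Glul, the glutamine synthetase gene (-0.23, standard error 0.10), where 14.1% of all genes were called. The call of Glul was lost in 13 and that of Aldoc in 9 of 19 alternative settings, and that of Acsbg1 in 0. Over all mice 1 of the 15 was lower and 0 higher, beside 2.61% of genes called. Of the 4 tested markers of Bergmann glia, the radial astrocytes of the cerebellum, Hopx (-0.46, standard error 0.18) and Fabp7 (-0.60, standard error 0.25) were lower with the digit as covariate, though the call of Fabp7 was lost in 5 and that of Hopx in 4 of 19 alternative settings, Hopx being at -0.28 without P3-612. A2m, also on that list, gave 0.37 in the same fit (standard error 0.19, unadjusted p = 0.077 by edgeR), which did not pass. Between the digits A2m was higher in digit 3 (log2 difference 1.31, standard error 0.20). Hopx (0.20, standard error 0.18) and Fabp7 (-0.19, standard error 0.25) were not called there. In these libraries Hopx and Fabp7 thus did not follow the cerebellum markers, and their values cannot be assigned to Bergmann glia.

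Markers of other cells moved with some of these values. The 7 neutrophil markers (S100a8, S100a9, Ngp, Camp, Ltf, Mpo and Retnlg) summed to 39.8 CPM in F1-622, 10.9 CPM in P3-612 and 5.5 CPM in F1-624, and to between 0.52 and 1.7 CPM in the other 7 mice. S100a9 had 172 counts in F1-622 and 55 in P3-612, against 2 to 26 elsewhere. P3-612 also held the most red blood cell RNA, 40.2 CPM over the marker list against 2.98 to 17.7 CPM in the other 9 mice. Lcn2, itself a neutrophil granule gene, was highest in F1-622, then in F3-908 and then in P3-612. In F3-908 Lcn2 was at 9.74 CPM and the neutrophil markers summed to 1.7 CPM. Leaving out both F1-622 and P3-612, a choice made after seeing these values, gave a log2 fold change of 1.84 for Lcn2 over all mice (unadjusted p = 0.017 by edgeR), 0.58 for Serpina3n (unadjusted p = 0.04 by edgeR) and 0.26 for C4b (unadjusted p = 0.21 by edgeR). P3-612 is the placebo mouse with the highest Lcn2, so leaving it out raised the Lcn2 value, from 0.94 without F1-622 alone. F1-624, at 5.5 CPM of neutrophil markers, was kept in. With these mice out, 2 of 10 members were called over all mice, where 1.41% of genes were, and 3 of 10 with the digit as covariate, where 9.51% of genes were. Endothelial markers moved with treatment: 7 of 10 were called higher with the digit as covariate, with a median of 0.42, where 14.1% of all genes were called, as were 3 of 10 over all mice (2.61% of genes), 5 of 10 within digit 3 (7.95%) and 0 of 10 within digit 1 (3.48%). Their sum ranged from 186 to 305 CPM with FTY720 and from 173 to 197 CPM with placebo. Markers of the oligodendrocyte lineage were called lower with the digit as covariate, in 4 of 6 precursor markers (median -0.46) and 4 of 9 oligodendrocyte markers (median -0.20), beside the same 14.1%. The microglial markers summed to 454 CPM in F1-622, the highest of 10 mice, and 292 CPM in F3-908. Their sum ranged from 371 to 454 CPM in digit 1 and from 259 to 355 CPM in digit 3. The part of any of these cells in the values of the 10 genes was not tested.

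**Figure D4:**
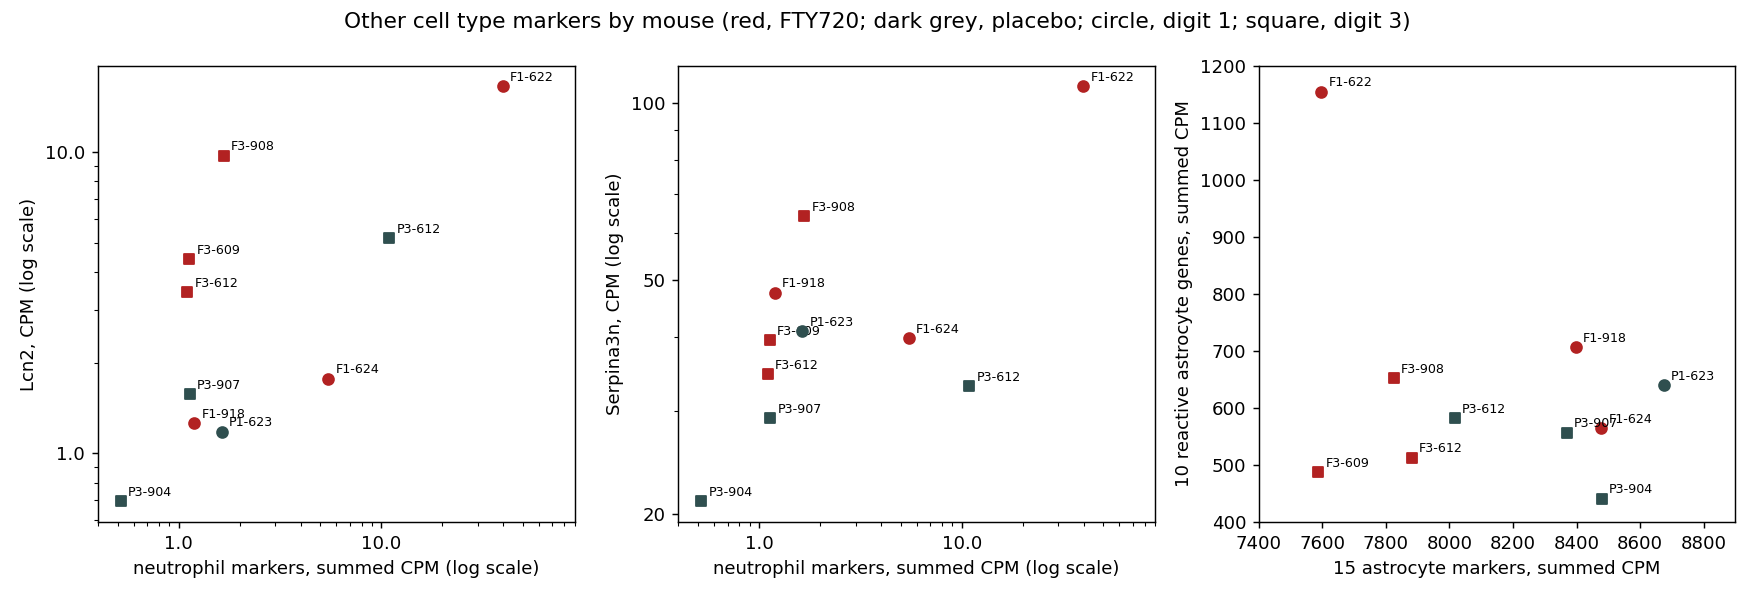
Each point is a mouse (red, FTY720; dark grey, placebo; circle, digit 1; square, digit 3). Left and middle, Lcn2 and Serpina3n against the sum of 7 neutrophil markers, both axes in CPM on log scales; right, the sum of the 10 reactive genes against the sum of 15 astrocyte markers in CPM, with axes that do not start at 0. F3-908 is high in Lcn2 and Serpina3n with neutrophil markers at 1.7 CPM, and F1-622 reaches 1154 CPM of reactive genes with astrocyte markers at 7597 CPM.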

How the data were processed

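Brain RNA of 10 Slc20a2-HO mice was measured by bulk RNA-seq. The authors deposited whole-number counts per gene and mouse, without normalisation, and FPKM values made from them. Per the methods and the submitters' processing notes, bases were called with CASAVA 1.8, reads were cleaned with in-house Perl scripts (the notes also name fastp), aligned to GRCm38 (mm10) with HISAT2 2.0.5 and counted with featureCounts 1.5.0-p3; the notes name DESeq2 1.20.0. The annotation release and strand setting are not given in the sources used here. Multi-mapped and shared reads depend on that setting, so near-identical genes are uncertain.

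Counts were filtered by filterByExpr (17665 genes kept, 14784 protein-coding), scaled by TMM and fitted by the quasi-likelihood model of edgeR 4.0.16 under R 4.3.3. Samples were grouped by the treatment label. Fits were FTY720 against placebo over all mice, with the name digit as covariate, within digit 3, within digit 1 and as an interaction, then digit against digit and leading number 9 against 6. Calls use an unadjusted p under 0.05, as in the study's methods, and for the digits a Benjamini-Hochberg adjusted p under 0.05. Standard errors are the log2 fold change over the square root of F. Single members were also compared by two-sided exact permutation of mean log2 CPM (prior count 2), whose smallest possible p is 0.00476 over the 210 splits, 0.0125 within digits and 0.1 for 3 mice against 3. Mice are separate animals. At totals of 14772745 to 18303981 counts, counting error weighs most on genes with few counts, among them Steap4, Timp1, Lcn2, Tgm1, B3gnt5, C4a and the neutrophil markers.

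The members and lists were chosen with earlier results of these data known. Genes named are the members, genes of the reactive, STAT3, inducer, astrocyte and Bergmann glia lists with an unadjusted p under 0.05, S1pr1, S1pr3, the 5 genes most like Gfap and Serpina3n, Slc20a2 and Gabra6; neutrophil markers, Xist, C4a and the other Serpina3 genes are named as checks. C1qa and A2m met this rule within digit 3 alone. Alternatives were DESeq2 1.42.0, scaling by upper quartile or RLE, no filter, at least 10 counts in every mouse, limma 3.58.1 on log2(FPKM + 0.1) and log2(FPKM + 1), limma-voom, the leading number as covariate and each mouse left out. In simulated data with 200 changed genes, edgeR over all mice recovered 66 of 100 changed by 1 on the log2 scale. It recovered 96 of 100 changed by 2, with 10 false calls among 17398 genes at an adjusted p under 0.05. In those data 4.85% of unchanged genes had an unadjusted p under 0.05 by edgeR. In the measured mice the same fit called 2.61% of protein-coding genes. Whether the recovery holds for the measured mice, or for members with few counts such as Steap4, was not tested.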

Additional observations from a re-analysis of the deposited data

Results flagged for a closer look

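Within the FTY720 group of 6 and the placebo group of 4, the gap between an extreme mouse and its nearest neighbour was compared with the whole range of the group (Dixon's test) for each of the 10 genes and the mean deviation, in 22 sets. In 3 sets it passed the 95% critical value (0.625 for 6 mice, 0.829 for 4), where chance gives about 1 in 20 sets. For Vim, at 104 CPM in F1-622, the gap to the next mouse took up 0.66 of the FTY720 group's range, and for Aspg, at 13.9 CPM in F1-622, it took up 0.69. For Cd44, at 4.85 CPM in P1-623, the lowest placebo mouse, the gap took up 0.84 of the placebo group's range. P1-623 is also the 1 placebo mouse of digit 1.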

How the results depend on the processing

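No paired analysis was possible because FTY720 and placebo mice share 1 mouse number, which is fewer than the 2 pairs a block needs. Over all mice, the count of called members was 1 in place of 2 under limma on log2(FPKM + 0.1), limma on log2(FPKM + 1), limma-voom and the leading number as covariate, each losing C4b, and 3 with no filter, gaining Lcn2, and it ran from 0 (without P3-904) to 2 on leaving out single mice. With the digit as covariate it ran from 0 (without P1-623) to 3, was 1 without F3-908, and was 3 with no filter and under limma on log2(FPKM + 0.1). Within digit 3 it was 2 with no filter and 0 when taken from the fit of 4 groups on all mice, and 0 (without F3-908) to 2 on leaving out mice. Within digit 1 it was 0 under DESeq2 and 0 (without F1-622) to 2 (without F1-624). The interaction ran from 0 to 1 (without F1-918), and leading number 9 against 6 from 0 to 1 (without F3-908). Between the digits it was 2 under DESeq2 (C4b and Gfap), 3 with no filter, and 1 to 2 on leaving out mice. C4b kept its call between the digits in every setting. Vim reversed to -0.039 over all mice and to -0.038 with the digit without F1-622 and P3-612, and with the digit to -0.00070 on log2(FPKM + 0.1) and -0.013 with both covariates. On leaving out single mice these uncalled values crossed 0: over all mice Cd44 (-0.093 to 0.13) and Vim (-0.11 to 0.11); with the digit Cd44 (-0.042 to 0.23), Gfap (-0.033 to 0.17), S1pr3 (-0.015 to 0.18), Timp1 (-0.023 to 0.47) and Vim (-0.097 to 0.081); within digit 3 Aspg (-0.017 to 0.18), Cd44 (-0.090 to 0.045), Gfap (-0.18 to 0.075), Timp1 (-0.20 to 0.57) and Vim (-0.12 to 0.11). All protein-coding genes called over all mice numbered 386 and ran from 213 (without P3-612) to 862 (without P3-904), and 209 without F1-622 and P3-612; with the digit 2083 ran from 931 (without F3-609) to 3411 (without P3-904); within digit 3 1172 ran from 323 (without F3-609) to 3501 (without P3-904), and 1901 with no filter; between the digits 4441 ran from 2309 (without P1-623) to 5261 (without P3-612); for number 9 against 6, 219 ran from 84 (without F1-918) to 645 (without F3-908); for the interaction 243 ran from 145 (without P3-907) to 364 (without F1-624). Serpina3n stayed above 0 in all settings, from 0.55 to 1.0 over all mice. The mean deviation of each mouse moved by less than the standard deviation of the scores between mice in all 30 recalculations. That is a wide limit, under which F3-612 crossed 0 (-0.046 to 0.032) and F1-918 ran from -0.38 to -0.21. The causes of these differences were not tested.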

Other observations

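Of the 7 genes known to induce reactive astrocytes, 5 passed the filter, and 0 were called by edgeR over all mice or with the digit as covariate at an unadjusted p under 0.05. Within digit 3, C1qa, a chain of complement C1q made by microglia, was the 1 called, with a log2 fold change of -0.76 where 7.95% of genes were called, opposite in sign to that of C4b. C1qa stood at 18.8, 27.1 and 36.3 CPM in F3-609, F3-612 and F3-908 and at 62.0, 28.6 and 48.8 CPM in P3-612, P3-904 and P3-907, so the groups overlapped. Of the 10 microglial markers, C1qa among them, 3 were lower within digit 3 and 2 with the digit as covariate (14.1% of genes called), and 0 were higher in either fit by edgeR at an unadjusted p under 0.05. The summed level of the 7 inducers was 234 CPM in F1-622 and 119 CPM in F3-908, with 71.5 to 191 CPM in the other 8 mice. F1-622 thus had the highest inducer, microglial and neutrophil marker sums as well as the highest reactive gene sum. F3-908 had not, but it is of the other digit. The microglial sum was 371 to 454 CPM in digit 1 and 259 to 355 CPM in digit 3. The inducer sum was 135 to 234 CPM and 71.5 to 177 CPM. Of the 10 microglial markers, 8 were lower in digit 3 at an adjusted p under 0.05 by edgeR, where 30.0% of genes were called. F1-622 was also the highest mouse in the fibroblast sum (96.7 CPM against 60.4 to 85.0 CPM), the neuron sum (6848 against 5605 to 6125 CPM) and the cortex and hippocampus sum (752 against 416 to 637 CPM).

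The 13 genes linked to the A1 type summed to 214 CPM in F1-622, 209 CPM in P3-612 and 208 CPM in F3-908, against 147 CPM in P3-904, the mouse lowest in the 10 reactive genes. A2m, a protease inhibitor that marks Bergmann glia, was at 39.1, 35.7 and 39.3 CPM with FTY720 and 27.4, 31.7 and 27.7 CPM with placebo within digit 3, a log2 fold change of 0.40 (unadjusted p = 0.0074 by edgeR) in mice that do not overlap. It did not pass adjustment (adjusted p = 0.654 by edgeR), and within digit 3 13.7% of genes did not overlap and 7.95% were called. In digit 1, where the 9 cerebellum markers summed to 292 to 366 CPM against 1267 to 1480 CPM in digit 3, it was at 22.5, 9.08 and 13.6 CPM with FTY720 and 12.1 CPM with placebo.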
